A study of Mus musculus and Rattus norvegicus with 6 samples.

Results

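Liver RNA of 8 genes around the activator limb of the circadian clock was described on 6 microarrays of leptin-deficient and control mice and rats. The genes were Arntl (also written Bmal1), Clock, Npas2, Nfil3, Cry1, Cry2, Rora and Bhlhe40. They were chosen by symbol, with earlier results of these data known. All 34 of their probe sets were used: 21 of 45037 probe sets on the mouse array and 13 of 31042 on the rat array. The mutant mice were Lepob/Lepob and the mutant rats Lepmkyo/Lepmkyo. The WT animals were littermates of the mutants and shared their background, C57/BL6J for mice and F344/NSlc for rats. All animals were males aged 20 weeks. In each species WT animals received saline, mutants received saline and other mutants received recombinant murine leptin, by intraperitoneal injection, and liver was taken 6 h later, a time the submitters chose to precede changes in feeding and weight. No WT group was given leptin. The rat titles spell the genotype Lepmyo/Lepmkyo and the source field names Lepob, so Lepmkyo follows the descriptions. Each of the 6 groups was 1 array, and whether it held 1 animal or a pool was not stated. There was therefore no replicate spread, no test was possible, and "higher" and "lower" compare 2 arrays. The hour of the day at collection was not stated, so hour, animal and group cannot be told apart.

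The mammalian clock is a feedback loop of transcription. BMAL1, the product of Arntl, pairs with CLOCK, or with the related protein NPAS2, and the pair binds E-box sequences to activate the Per, Cry, Nr1d1, Nr1d2 and Dbp genes. CRY1 and CRY2 act with the PER proteins to repress that pair, and BHLHE40 (DEC1) competes with it at E-boxes. RORA activates Arntl through RORE sequences, and the products of Nr1d1 and Nr1d2 (REV-ERB alpha and beta) repress it through the same sequences. NFIL3 (E4BP4) represses at D-box sequences, where DBP, TEF and HLF activate. In liver the RNA of Arntl oscillates in the opposite phase to that of Dbp and Per2, and feeding time can reset the rhythm.

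Motifs named in this scheme were searched in the mouse promoters, in RefSeq windows of assembly GRCm38.p6 that run from 250 bases before to 50 after a transcription start. Of the 8 genes, 7 had at least 1 window. Bhlhe40 had no window and was not searched. The matches below to the motifs of this scheme are shown to place their letters beside the genes whose signals are described, in 30 bases each, on the strand of the gene, with the match in capitals.
Arntl, RORE TAGGTTA, chr7:113207494-113207523, plus strand: tggtcggaaagTAGGTTAgtggtgcgacat
Arntl, RORE TAGGTCA, chr7:113207530-113207559, plus strand: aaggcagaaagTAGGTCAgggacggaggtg
Nfil3, RORE TAGGTCA read on the other strand, chr13:52981033-52981062, minus strand: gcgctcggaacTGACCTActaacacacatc
Cry1, E-box CACGTG, chr10:85185097-85185126, minus strand: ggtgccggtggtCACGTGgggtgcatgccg
Cry1, E-prime box CACGTT read on the other strand, chr10:85185116-85185145, minus strand: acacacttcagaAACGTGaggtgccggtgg
Cry2, E-prime box CACGTT read on the other strand, chr2:92434218-92434247, minus strand: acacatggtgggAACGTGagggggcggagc

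These 6 sites were all the matches to the motifs searched on both strands. No match in capitals overlapped another, while the stretches printed for Cry1 share bases. In Arntl, TAGGTTA began 40 bases after the upstream start and 6 bases before the downstream start of the annotation, and TAGGTCA 30 bases after the downstream start. In Nfil3 the match began 12 bases before the start, and in Cry1 60 bases (E-box) and 79 bases (E-prime box) before it. Among all 32851 windows, CACGTG was found in 7.15%, CACGTT in 4.68%, TAGGTCA in 2.61%, TGGGTCA in 3.98% and TAGGTTA in 1.44%. The D-box forms TTATGTAA and TTACGTAA were in 0.938% and 0.119% of windows and in none of the windows of the 7 genes searched. TAGGTTA was added to the search after the Arntl sequence had been seen. The windows of Clock, Npas2 and Rora held no match, which says only that these letters are not in those windows. A match is a description of the sequence and not evidence of binding.

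Signals are MAS5 intensities. Their trimmed mean was 496 to 497 on every array, and array medians were 77.0 to 91.9 in mice and 93.6 to 99.3 in rats. The floor below which signals were not read was the median over the 3 arrays of each species, 82.7 for mouse and 97.0 for rat. Values under it were raised to it before a ratio was taken, so that a ratio with 1 array under the floor is a bound. Where a gene had several probe sets, the brightest on average stood for it. In mice 7 of the 8 genes had a probe set at or above the floor on all 3 arrays, Npas2 being the exception, and in rats all 8 had one. Of the 34 probe sets, 5 were under the floor on all arrays of their species. The 7 hepatocyte markers, among them Alb and Ttr, were above the floor on all 6 arrays. Of the adipocyte markers, Adipoq and Lep were under it on all 6, while 1 other marker was above it on each mouse array and on both mutant rat arrays.

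**Figure D1:**
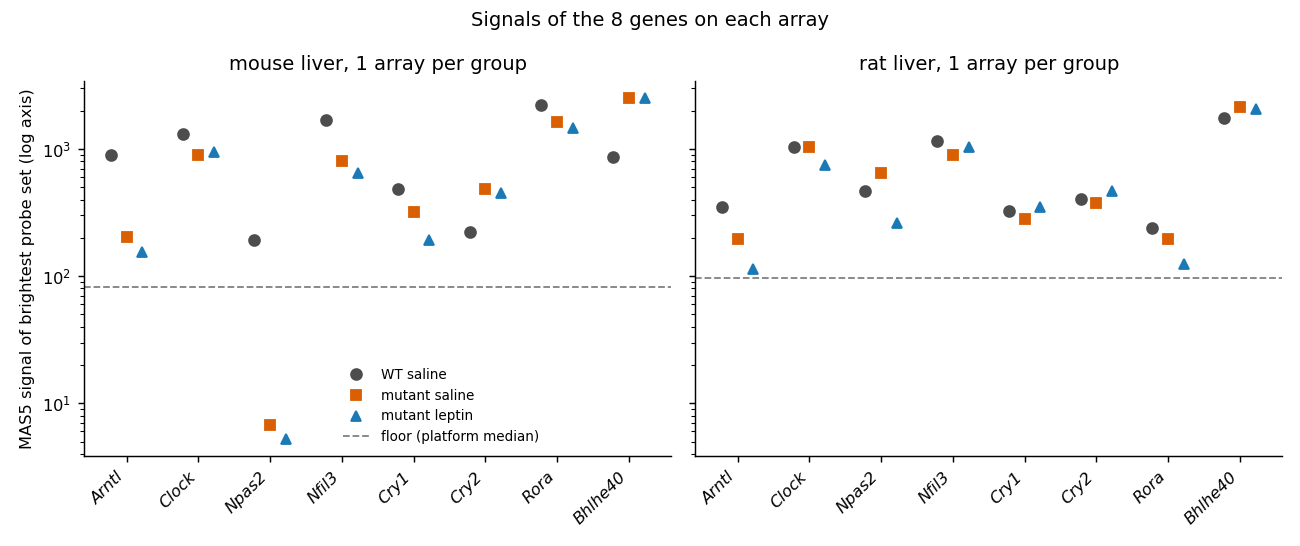
Signal of the brightest probe set of each of the 8 genes (log axis) on the 3 mouse arrays (left) and the 3 rat arrays (right), with 1 point per array and the floor as a dashed line. Arntl was highest on the WT array and lowest on the leptin-injected mutant array in both species, while Npas2 was under the floor on both mutant arrays in mice and above it on all 3 in rats. Points of different genes come from different probe sets and are not comparable in height.

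In mouse liver, Arntl had the largest measured ratio of the 8 genes between saline-injected Lepob/Lepob and WT animals, Npas2 having only a bound. Its signal was 889.7 on the WT array, 202.4 on the saline mutant array and 155.6 on the leptin mutant array. WT was the high array and both mutant arrays were low. The mutant was 4.40-fold lower than WT after saline and 5.72-fold lower after leptin. The first ratio was the 49th lowest of 11956 genes measured. The second mouse probe set of Arntl had signals of 179.2, 96.5 and 86.6 in the same order and a smaller ratio of 1.86-fold for saline mutant against WT. Both probe sets therefore had the same order of arrays, and the size depended on the probe set. In rats the single Arntl probe set read 346.5 on the WT array, 195.4 on the saline mutant array and 113.6 on the leptin mutant array. The order of the arrays was the same as in mice, with the saline mutant 1.77-fold below WT and the leptin mutant 3.05-fold below it. The ratio of the rat leptin mutant to WT was the 38th lowest of 9742 genes. On their brightest probe sets, Arntl and Rora were the genes of the 8 that were lower at both steps, WT to saline mutant and saline mutant to leptin mutant, in both species. The share of all genes lower at both steps was not computed, and the mouse probe sets of Rora disagreed on the first step. The steps share the saline mutant array, so a deviation of that array moves both.

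Clock encodes the partner of BMAL1 and differed less. Its brightest mouse probe set read 1305.8 on the WT array, 898.2 on the saline mutant array and 940.1 on the leptin mutant array. All 4 mouse probe sets were lower in the saline mutant than in WT, with log2 ratios from -0.84 to -0.54, of which 1 was a bound. After leptin the 3 measured probe sets lay between -0.16 and 0.07 of the saline mutant. In rats the brightest Clock probe set read 1026.7, 1030.0 and 748.4 on the WT, saline mutant and leptin mutant arrays. WT and saline mutant were nearly equal there and the leptin mutant was 1.38-fold below the saline mutant. Against WT, the saline mutant was lower on 2 of the 3 measured rat probe sets, with log2 ratios from -0.50 to 0.005. The 3 measured rat probe sets were all lower after leptin, at log2 ratios of -0.46 to -0.16, the last being a bound.

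Npas2 encodes the alternative partner of BMAL1, and the species differed in its order of arrays. In mice the brightest probe set read 190.8 on the WT array, 6.8 on the saline mutant array and 5.2 on the leptin mutant array. Both mutant arrays were under the floor, so Npas2 was at least 2.31-fold lower than WT in each and had no leptin ratio. A second mouse probe set was under the floor on all 3 arrays, at 79.8, 11.3 and 26.0. In rats the single probe set read 465.4 on the WT array, 650.5 on the saline mutant array and 259.3 on the leptin mutant array. Npas2 was thus 1.40-fold higher in the saline mutant rat than in WT, and 2.51-fold lower after leptin than after saline. That leptin ratio was the 8th lowest of 9705 rat genes. The saline mutant was the high array and the leptin mutant the low one.

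The cryptochromes, which repress the BMAL1 pair, differed in direction in mice. Cry1 read 487.8 on the WT array, 321.7 on the saline mutant array and 192.4 on the leptin mutant array. It was 1.52-fold lower in the saline mutant and a further 1.67-fold lower after leptin, the lowest leptin ratio among the 7 genes measured in that comparison. Cry2 read 222.4, 482.7 and 451.8 in the same order. WT was the low array, and Cry2 was 2.17-fold higher in the saline mutant and 1.07-fold lower after leptin. In rats Cry1 read 327.6, 283.5 and 352.4 on the WT, saline mutant and leptin mutant arrays. The brighter rat probe set of Cry2 read 406.5, 374.1 and 468.6, and a dimmer one 158.1, 99.0 and 28.3. Cry1 and the brighter Cry2 probe set were highest on the leptin array, by 1.24-fold and 1.25-fold over the saline mutant, while the dimmer Cry2 probe set was under the floor there. Each of these genes had 1 mouse probe set.

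Rora encodes the activator of Arntl, and its 9 mouse probe sets disagreed. The brightest read 2217.4 on the WT array, 1617.5 on the saline mutant array and 1451.8 on the leptin mutant array, 1.37-fold lower in the saline mutant. Of 7 mouse probe sets measured against WT, 3 were below 0 and 4 above, from -1.11 to 0.26 on the log2 scale, with 1 of the higher ones a bound. The direction of Rora in the mutant mouse therefore depended on the probe set. The cause of the disagreement was not tested. After leptin all 7 lay between -0.16 and 0.09. In rats the brighter Rora probe set read 237.4, 195.8 and 123.5 on the WT, saline mutant and leptin mutant arrays, and the other was under the floor on all 3. It was 1.21-fold lower in the saline mutant and a further 1.59-fold lower after leptin.

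Nfil3, the D-box repressor, read 1685.5 on the mouse WT array, 810.6 on the saline mutant array and 646.6 on the leptin mutant array. It was 2.08-fold lower in the saline mutant and 2.61-fold lower in the leptin mutant than in WT. In rats it read 1150.1, 903.5 and 1027.8, with both mutant arrays less than 1.3-fold below WT. Bhlhe40, the E-box competitor, was high on both mutant mouse arrays. It read 861.1 on the WT array, 2500.9 on the saline mutant array and 2509.8 on the leptin mutant array, 2.90-fold and 2.91-fold above WT. In rats it read 1743.1, 2131.1 and 2060.2, or 1.22-fold and 1.18-fold above WT. Nfil3 and Bhlhe40 each had 1 probe set per species.

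**Figure D2:**
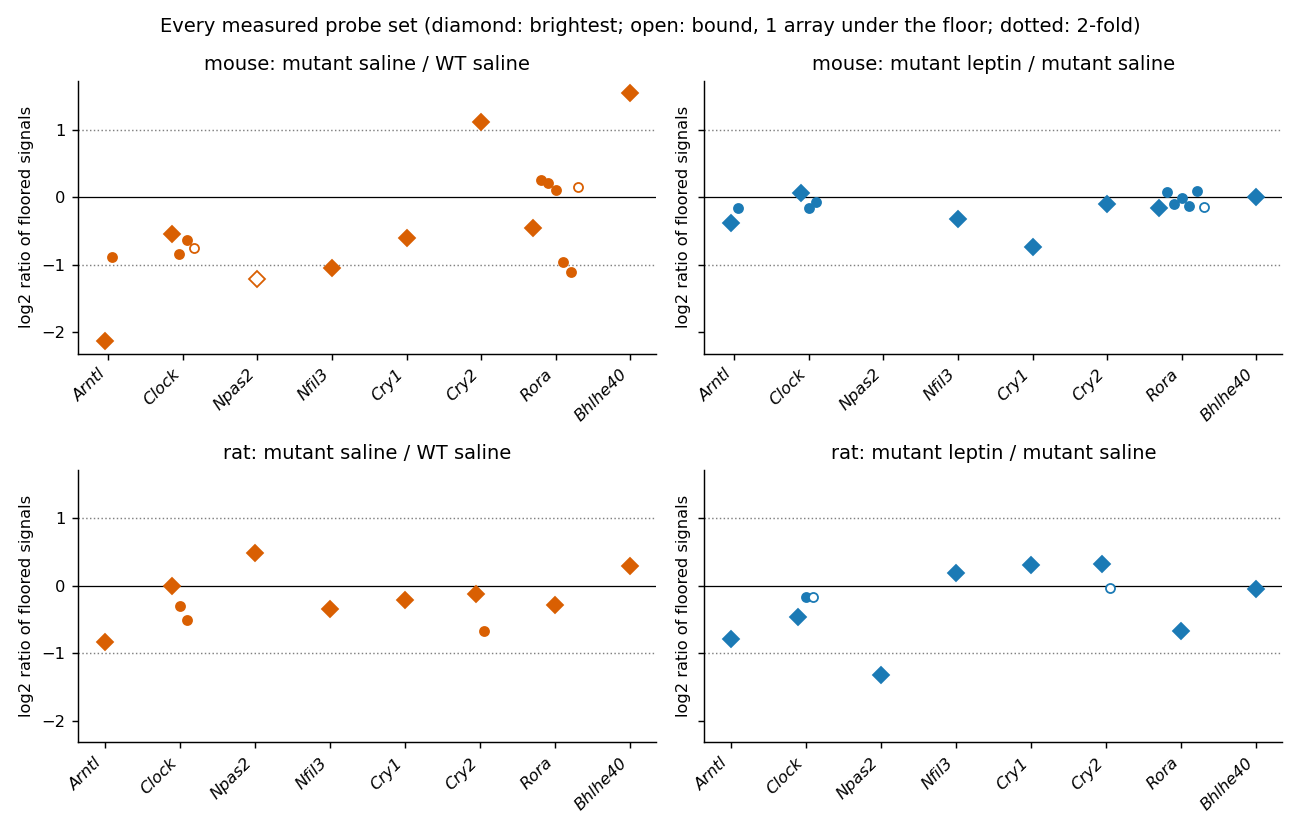
Log2 ratio of every measured probe set of the 8 genes, for saline mutant over WT (left) and leptin mutant over saline mutant (right), in mice (top) and rats (bottom). Diamonds are the brightest probe set of a gene, open symbols are bounds and dotted lines mark 2-fold. The probe sets of mouse Clock lie together below 0, and those of mouse Rora spread from -1.11 to 0.26.

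In the mouse saline comparison, 3 of the 8 genes were at least 2-fold lower in the mutant (Arntl, Npas2, Nfil3) and 2 at least 2-fold higher (Cry2, Bhlhe40). Nfil3 was no longer 2-fold lower after median centring (-0.80), nor Arntl without probe sets that can match several transcripts (-0.89), nor Cry2 2-fold higher with the floor at the 75th percentile (0.33), where Npas2 was not measured. Of all 11956 genes measured, 3.71% were at least 2-fold lower and 4.46% at least 2-fold higher. The median log2 ratio of the 8 genes was -0.57, with 6 below 0 and 2 above, beside a median of -0.03 over all genes. The 8 genes thus did not move as one group. At 1.5-fold the count was 6 of 8, against 24.8% of all genes either way. Probe sets that target one gene gave log2 ratios with a pooled SD of 0.45 over 5333 genes. This SD measures how far probe sets of a gene differ, and not the spread of repeated arrays or of animals. The ratios of all 8 genes exceeded that SD in size, those of Clock, Cry1 and Rora, from -0.60 to -0.46, by the least. Rora barely did, at -0.455 against 0.451. After median centring Clock was -0.28, Cry1 -0.35 and Rora -0.20, all smaller in size than that SD. As the median over its probe sets Rora was 0.11. On the same arrays the 7 hepatocyte markers were all lower in the mutant, with a median log2 ratio of -0.41 and none at 2-fold, and their summed signal was 298307 in WT and 223358 in the mutant. All 5 stellate cell markers were higher, with a median of 0.73 and none at 2-fold. The part of these markers in the clock values was not tested. In whole liver, fewer cells of a type and less RNA per cell cannot be told apart.

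After leptin, 0 of 7 measured genes were 2-fold from the saline mutant in mice, where 0.243% of all 11536 genes were at least 2-fold lower and 0.182% higher. The median of the 7 was -0.16 against -0.002 over all genes. Cry1 alone passed 1.5-fold, as did 4.39% of all genes. The probe set spread in this comparison was 0.26 (SD, log2), which the ratios of Cry1 (-0.74), Arntl (-0.38) and Nfil3 (-0.33) exceeded. Those of Rora, Cry2, Clock and Bhlhe40 did not. Of the 6 genes lower in the saline mutant than in WT, 5 could be measured after leptin, and 4 of these were lower still. The share of all genes lower at both steps was not computed. Rora was 1 of the 4, with a leptin ratio of -0.16, within that spread. Against WT, 4 of its 7 measured mouse probe sets were above 0 in the saline mutant. In the leptin-injected mutant against WT, 4 of 8 genes were at least 2-fold lower (Arntl, Npas2, Nfil3, Cry1) and 2 higher (Cry2, Bhlhe40), against 3.46% and 3.98% of 11958 genes. At 1.5-fold the count was 7 of 8, beside 23.0% of all genes.

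In rats the genotype differences were smaller. For the saline mutant against WT, 0 of 8 genes were 2-fold apart, while 1.45% of 9817 genes were at least 2-fold lower and 2.99% higher. Arntl alone passed 1.5-fold, as did 16.1% of all genes. The median of the 8 was -0.16 against 0.04 over all genes. On the brightest probe sets, 4 of the 8 genes were below WT in both species (Arntl, Nfil3, Cry1, Rora) and 1 was above in both (Bhlhe40). Another 3 had opposite signs (Clock, Npas2, Cry2). The share of all genes with the same sign in both species was not computed. The probe set spread in this rat comparison was 0.44 (SD, log2), which Arntl (-0.83) and Npas2 (0.48) exceeded in size. The rat ratios of Nfil3 (-0.35), Cry1 (-0.21), Rora (-0.28), Bhlhe40 (0.29), Cry2 (-0.12) and Clock did not. The rat Clock ratio was 0.005, which is close to no difference, and 2 of the 3 measured rat Clock probe sets were below 0. The median over the rat Clock probe sets was -0.29, the same sign as in mice. For mouse Rora, 4 of 7 measured probe sets were above 0. No test of the difference between species was possible. After leptin 1 of 8 genes, Npas2, was at least 2-fold lower and 0 were higher, against 0.278% and 0.237% of 9705 genes. At 1.5-fold the count was 3, all lower (Npas2, Arntl, Rora), against 4.71% of all genes either way. The probe set spread was 0.25 (SD, log2). In the leptin mutant against WT, Arntl alone was 2-fold lower and 0 were higher, against 1.61% and 2.83% of 9742 genes. Rora and Npas2 were 1.92-fold and 1.79-fold lower, and 3 of 8 passed 1.5-fold, against 17.2% of all genes.

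**Figure D3:**
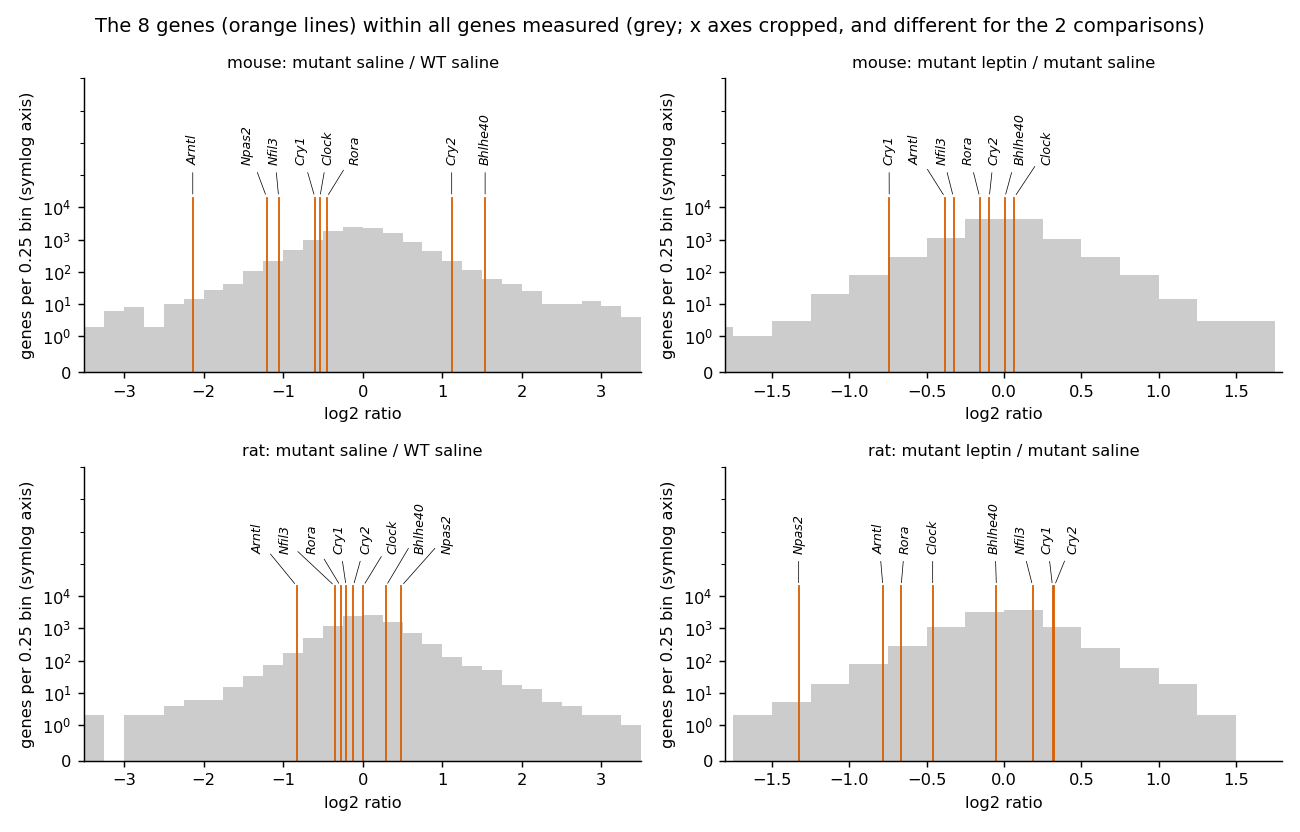
Log2 ratios of the 8 genes (orange lines) within the distribution of all genes measured (grey bars, number of genes per bin on a symmetric log axis), for saline mutant over WT (left) and leptin mutant over saline mutant (right) in mice (top) and rats (bottom). In the mouse genotype panel Arntl lies in the low tail and Bhlhe40 in the high tail, and in the rat leptin panel Npas2 lies in the low tail. Npas2 is missing from the mouse leptin panel because both arrays were under the floor.

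The other genes of the loop were taken as lists, also chosen with earlier results of these data known. Among clock repressors and output factors, 7 of 10 measured in mice were at least 2-fold higher in the saline mutant than in WT and 0 lower, with a median log2 ratio of 1.35, beside 4.46% higher, 3.71% lower and a median of -0.03 over all genes. Dbp, the D-box activator, read 268.2 on the WT array and 6612.5 on the saline mutant array, 24.7-fold higher. Per2, a partner of the cryptochromes, read 128.6 and 826.4, and its relative Per3 was at least 8.78-fold higher. Nr1d1, the repressor of Arntl and Nfil3, read 157.8 on the WT array, 195.4 on the saline mutant array and 89.3 on the leptin mutant array. Nr1d2 read 4062.4, 6670.0 and 6559.3. Nr1d2 was therefore 1.64-fold higher in the saline mutant while Arntl was lower, and Nr1d1 was 2.19-fold lower after leptin while Arntl was also lower. The leptin mutant signal of Nr1d1 was close to the floor of 82.7. In rats all 9 measured genes of this list were above WT in the saline mutant, with a median of 0.54 beside 0.04 over all genes. Dbp alone reached 2-fold, as did 2.99% of all genes in that direction, at 543.5 on the WT array and 1087.4 on the saline mutant array. Nr1d1 was 1.98-fold higher, and after leptin it was 1.52-fold lower than in the saline mutant while Per2 was 1.56-fold higher.

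Of the genes of clock protein turnover measured in mice, 1 of 9 was 2-fold higher in the saline mutant and 0 lower, with a median of 0.22, beside the same 4.46% and 3.71% of all genes. The one was Usp2, a deubiquitinase with a circadian transcript, at 11.2-fold. In rats it was Cipc, a CLOCK-interacting repressor, at 2.07-fold, as 1 of 8, with a median of 0.07, beside 2.99% of all genes. Of 7 liver clock outputs, 3 were 2-fold higher in the mutant mouse and 0 lower, with a median of 0.99, beside 4.46% and 3.71% of all genes. They were Noct (4.26-fold), the kinase Wee1 (4.13-fold) and Nampt (2.05-fold), an enzyme of NAD synthesis. In rats the same list had a median of -0.39, with 1 of 7 higher (Gpam, a glycerol-phosphate acyltransferase, 2.79-fold) and 1 lower (Noct, 2.54-fold), beside 2.99% and 1.45% of all genes. Noct was thus higher in the mutant mouse and lower in the mutant rat. After leptin Nr1d1 in mice, 1 of 9 measured in its list, was the single gene of the 3 lists past 2-fold in either species. It was lower, and its leptin mutant signal of 89.3 was close to the floor of 82.7. Of all genes, 0.243% were at least 2-fold lower and 0.182% higher in mice, and 0.278% and 0.237% in rats. Noct was 1.95-fold higher in the mouse, and in the rat Nampt was 1.75-fold higher and Gpam 1.81-fold lower.

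**Figure D4:**
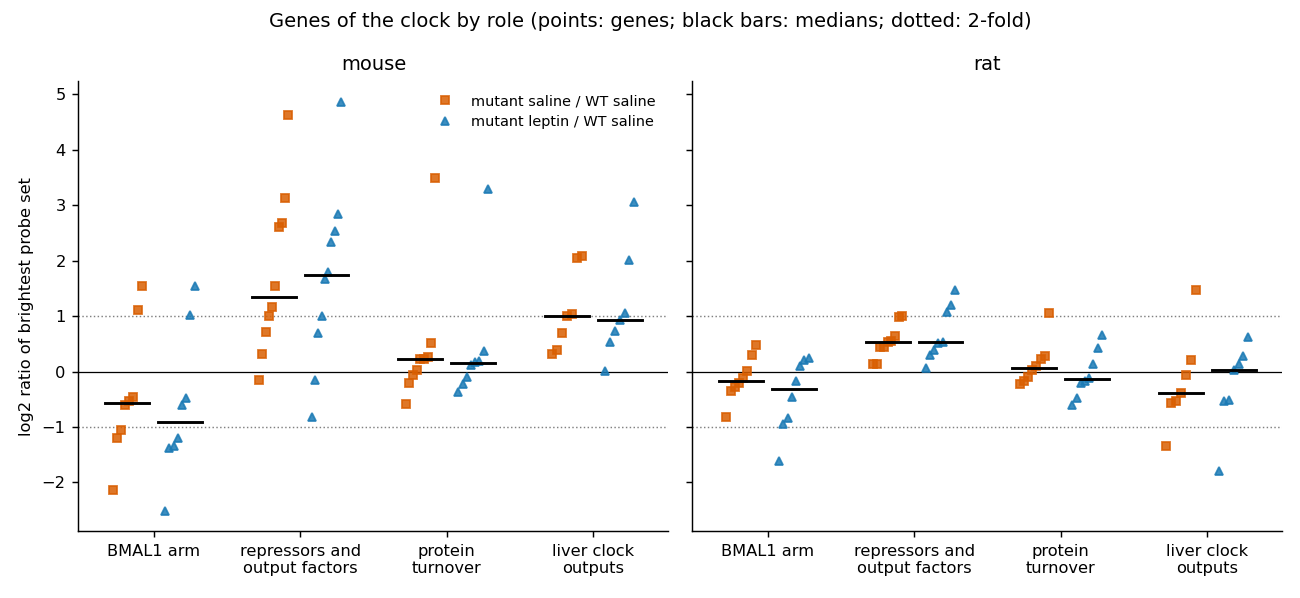
Log2 ratios to WT of the 8 genes (BMAL1 arm) and of 3 other lists of clock genes, for the saline mutant (squares) and the leptin mutant (triangles), in mice (left) and rats (right). Each point is a gene, black bars are medians and dotted lines mark 2-fold. In mice the medians of the 8 genes lie below 0 and those of repressors and output factors above 1, and in rats both lie closer to 0. Both series of points share the WT array.

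The genes whose pattern was most like that of Arntl were sought over all 6 arrays. Likeness was the Euclidean distance between log2 signals, used here without the floor, after the mean of each species had been subtracted, among 8462 other genes measured in both species. The nearest was Sult5a1, of the sulfotransferase family, at a distance of 0.30 against a median of 2.29 over all genes. It read 1074.5, 282.6 and 171.9 on the WT, saline mutant and leptin mutant arrays of mice and 346.5, 229.5 and 131.5 on those of rats. Next were Acsm2, a medium-chain acyl-CoA synthetase (0.55), the cytochrome P450 Cyp1a2 (0.78), the keratin Krt33b (0.80) and the hepatocyte transcription factor Onecut1 (0.86). Cyp1a2 and Onecut1 each had their lowest array apart from Arntl in 1 species, the saline mutant in rats and in mice respectively. Krt33b was under the floor on both mutant arrays of either species, and Acsm2 on both mutant arrays of mice. Both were above it there in WT alone, so their distances and places rest on signals too dim to be read and are uncertain, as is that of Npas2. Among the other 7 genes Nfil3 ranked nearest to Arntl, at place 130, and Bhlhe40 farthest, at place 8200. Dbp ranked 8452nd. With 1 array per group these distances describe 6 arrays and carry no test.

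**Figure D5:**
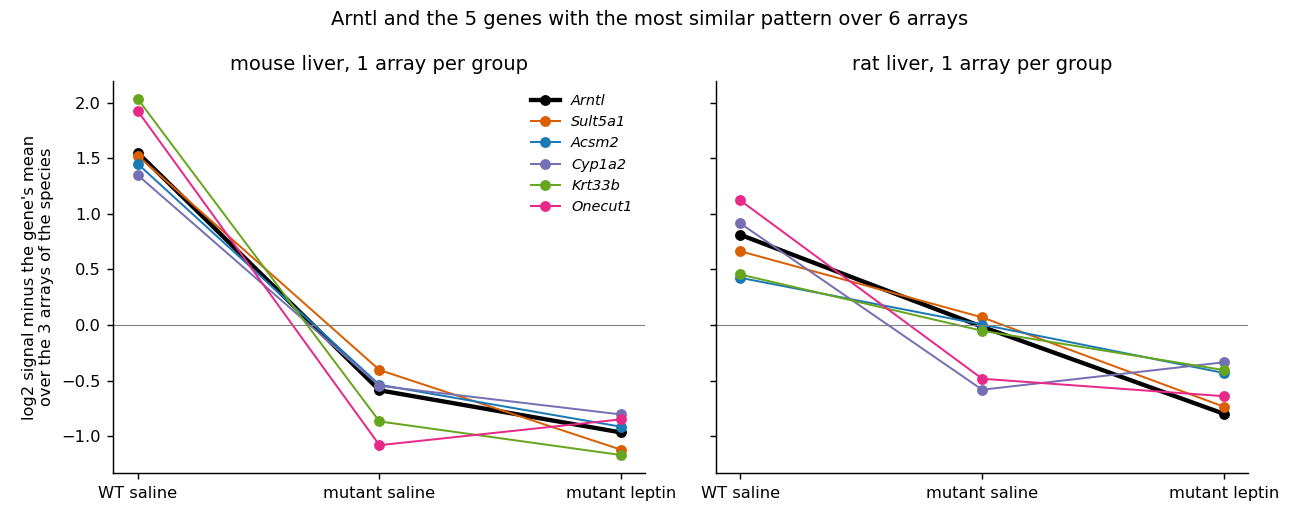
Log2 signal minus the gene's mean over the 3 arrays of its species, for Arntl (black) and the 5 genes nearest to it, in mice (left) and rats (right), with 1 point per array. All 6 genes are highest in WT in both species, and Cyp1a2 and Onecut1 differ from Arntl in the order of the mutant arrays in 1 species each.

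Markers of other cell types gave the following values beside these results. Macrophage markers were above the floor in 6 of 6 on each mouse array, with summed signals of 13383 to 16752, and in 4 of 4 on each rat array, with sums of 4519 to 5297. Lymphocyte markers were all under the floor on the 3 mouse arrays, and at most 1 of 3 reached it on a rat array. Neutrophil markers summed to 436 in the WT mouse, 769 in the saline mutant and 1745 in the leptin mutant, and to 208, 348 and 465 in rats. In mice 3 of 4 were higher and 1 lower at each step, the lower ratio being -0.36 for genotype and -0.56 for leptin (log2). In the WT rat 1 of 3 reached the floor. Stellate cell markers summed to 10456, 17986 and 18025 in mice and to 2289, 7487 and 7601 in rats. Endothelial sums lay between 5446 and 6621 in mice and between 2841 and 3977 in rats. Bile duct sums were 373, 192 and 188 in mice and 491, 934 and 967 in rats. All sums given here include signals under the floor. Of 3 bile duct markers in mice, 2 reached the floor in WT and 0 on either mutant array. Of 4 in rats, 1 reached it in WT and 3 on each mutant array. At most 1 of 4 adipocyte markers reached the floor on any array, and their sums were 1213, 3317 and 3243 in mice and 105, 893 and 570 in rats. The 1 marker measured was above WT in the saline mutant, at a log2 ratio of 1.53 in mice and 3.02 in rats. In rats this marker was Fabp4, and its ratio was a bound because WT was under the floor. In the saline mutant rat all 7 hepatocyte markers were below WT, with a median log2 ratio of -0.20 and 1 at least 2-fold lower, and their summed signal was 188212 against 211737 in WT. There 3 of 5 stellate markers were at least 2-fold above WT, with a median log2 ratio of 1.69. The part of any of these markers in the clock values was not tested.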

How the data were processed

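Liver RNA extracted with Trizol was hybridised to Affymetrix arrays, 3 of mouse and 3 of rat, 1 per group, per the labels' protocols. The deposited values are signal intensities on a linear scale. The submitters' processing notes name MAS5, whose version is not given in the sources used here. The values of all arrays share a trimmed mean, so a change in total RNA would not be seen. No detection calls were used, and a floor stands in for them. Symbols came from the platform annotation. Mouse symbols were updated through gene identifiers to assembly GRCm38.p6, rat symbols stayed, and probe sets with several symbols (932 and 436) or none (9160 and 9780) were left out. All 8 genes matched in both species.

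Ratios used the brightest probe set of a gene, with at least 1 of the 2 arrays at the floor (the platform median). Higher and lower mean 2-fold. The calculation was tested on simulated data. Named genes were all 8, up to 4 per list and comparison with the largest ratios, and the 5 most like Arntl; other genes were named after their values were seen. The genes and lists were chosen with earlier results of these data known. Of the 12, 10 and 8 genes of the other lists, 11, 9 and 7 were matched in mice and 10, 8 and 7 in rats. Alternatives were quantile normalization, median centring, a lower floor (25th percentile), a higher one (75th percentile), a gene's median in place of its brightest probe set, omission of probe sets that can match several transcripts, and 1.5-fold. Those omitted had names ending in _s_at, _x_at or _a_at, and their transcripts can belong to the same gene. The brightest mouse probe set of Arntl and the single rat one ended in _a_at. Python 3.11.15, pandas 2.3.3 and numpy 2.4.6 were used.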

Additional observations from a re-analysis of the deposited data

Results flagged for a closer look

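Of the 8 genes, 2 had ratios of opposite sign in the species that both exceeded the spread between probe sets. Npas2, saline mutant against WT, had a log2 ratio of -1.21 in mice (a bound, with the mutant array under the floor) and 0.48 in rats. Cry1, leptin mutant against saline mutant, had a log2 ratio of -0.74 in mice and 0.31 in rats. Each value compares 1 array with 1 array on a different platform, and the difference between the species was not tested.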

How the results depend on the processing

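Of the 13 ratios past 2-fold, none changed direction in any setting that measured it. Among all values of single genes under alternatives, 245 moved by less than the probe set spread and 17 by more. The mouse genotype count of 5 was 4 after median centring and 4 without probe sets that can match several transcripts. With the floor at the 75th percentile the count of genes at 2-fold was 3 rather than 5 for the mouse genotype, 3 rather than 6 for the leptin-injected mutant mouse against WT, and 0 rather than 1 for each of the rat comparisons after leptin. Of the 8 genes, 7 were then measured in mice against WT and 5 in rats after leptin, and dim signals were raised to the higher floor. The rat Npas2 leptin ratio was then -0.52. Without probe sets that can bind several transcripts, the rat leptin mutant against WT had 0, as the single Arntl probe set was left out, and mouse Arntl was -0.89 against -2.14. At 1.5-fold the count was 1 for mouse leptin, 1 for rat genotype, 3 for rat leptin and 3 for the leptin-injected mutant rat against WT. As the median over probe sets, mouse Rora was 0.11 in place of -0.46, and rat Cry2 in the leptin mutant against WT was -0.25 in place of 0.21. Median centring moved the median of all mouse genotype ratios from -0.03 to 0.22. Counts higher and lower were then 962 and 235, and 663 and 351 after quantile normalization, beside 533 and 443, and Nfil3 was at -0.80. For the leptin mutant mouse against WT they were 767 and 235, beside 476 and 414. With the lower and the higher floor the mouse genotype counts were 984 and 1341, and 267 and 198. Of the 5 genes nearest to Arntl, 4 were shared after quantile normalization. Leaving out replicates was not possible with 1 array per group. No paired analysis was possible because each group had 1 array. Dim signal limits Npas2 in mice, where the ratio to WT is a bound that moves with the floor, from -1.21 to -2.98 with the floor at the 25th percentile.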
